A study of Mus musculus with 35 samples.

Results

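The genes of sterol and fatty acid synthesis were followed in type 1 conventional dendritic cells (cDC1) sorted from mouse spleen. The group is a list of 30 genes known to be driven by, or to control, the sterol regulatory element binding proteins (SREBP), with 21 genes in a cholesterol branch and 9 in a fatty acid branch. Of these, 29 could be measured among 19938 named genes, namely 20 of the cholesterol branch and all 9 of the fatty acid branch. Acat2, the thiolase at the entry of the cholesterol pathway, was not analysed here.

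Cells build cholesterol from acetyl-CoA by way of mevalonate, squalene and lanosterol, and they build fatty acids from the same acetyl-CoA by carboxylation, chain assembly, elongation and desaturation. SREBP precursors sit in the endoplasmic reticulum, where INSIG proteins hold them back while sterols are plentiful. Once released and cleaved, SREBP2 (from Srebf2) mainly drives the cholesterol genes and SREBP1 (from Srebf1) the fatty acid genes. Type I interferon is known to lower sterol synthesis in macrophages. MYCL is a transcription factor of the MYC family that dendritic cells express, and MXD1 is a MAX partner that represses genes bound by MYC proteins.

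RNA was measured on 35 Affymetrix arrays in 4 sets, and the comparisons ask what Mycl changes in cDC1 at rest and after poly IC, and what Mxd1 changes after poly IC. Set 1 held 4 Mycl KO arrays (MyclGFP/GFP, a GFP allele on both copies of Mycl) and 5 heterozygous arrays (MyclGFP/+), so its controls carry the GFP allele as well. Set 2 held 5 Mycl KO arrays (MyclGFP/GFP) and 5 WT arrays (Mycl+/+). Both sets came from resting mice. Set 3 held 5 Mycl KO (MyclGFP/GFP) and 5 WT (Mycl+/+) arrays taken 5 h after 100 µg of poly IC in the peritoneum. Poly IC is a synthetic double-stranded RNA that sets off the interferon response. The Mxd1 set held 3 arrays labelled Mxd1 KO (Mxd1-/-) and 3 WT arrays (Mxd1+/+), all taken 18 h after the same dose. Arrays of a group carry biological replicate numbers, but no label says that each is another mouse. The p-values therefore measure the spread between these arrays, which may not be the spread between mice.

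All levels are log2 values, and differences are log2 fold changes, KO minus control, with the standard error (SE) of the fit. Differences were tested with limma over all genes of a comparison, and "rose" and "fell" are used for a Benjamini-Hochberg adjusted p under 0.05. Pairs of arrays within a set shared between 2 and 2770 exactly equal values, with a median of 18, against 0 to 3 for pairs from different sets, and array medians ran between 5.47 and 6.57, so the sets were taken as normalized separately and no level was tested across them. Mycl averaged 6.96 in KO against 9.84 in heterozygous arrays of set 1, and 5.65 in KO against 9.67 in WT arrays of set 2. In set 3 the KO arrays held 5.84, 5.99, 8.87, 5.52 and 6.14, so that KO array 3 lay near the WT arrays, which held 9.03 to 9.81. WT arrays 1 and 4 of set 3 stood apart by their interferon genes, with a mean log2 level over 11 such genes of 7.62 and 8.73, against 10.82 to 11.08 in the other 3 WT arrays and 10.90 to 11.31 in the KO arrays. Mxd1 was at 10.41 to 10.64 in the arrays labelled Mxd1 KO against 10.63 to 11.03 in WT arrays (-0.31 ± 0.11, adjusted p = 0.260), which does not show the labelled loss, and the position of its probes was not checked. The 8 cDC1 markers lay above the filter on low values on every array. So did all 4 markers of plasmacytoid dendritic cells and 2 of 3 B cell markers, so passing this filter does not show purity. In each group, 3 to 4 of 5 cDC2 markers and 4 to 5 of 7 macrophage and monocyte markers passed it on all arrays. All 29 measured genes passed that filter in every comparison except that within set 2, where 28 did. In such bulk RNA, fewer cells of a kind and less RNA per cell cannot be told apart.

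Promoters were read for the 23 listed genes that had an entry in the RefSeq promoter table (GRCm38.p6), as the 250 bases before each of their 28 start sites. Fdps, Fdft1, Sqle, Stard4, Scd1, Scd2 and Fads1 are not among them. On either strand, CCAAT, the box bound by NF-Y, which works together with SREBP, lay in 19 of the 28 windows (67.9%), against 33.8% of all 32851 promoter windows of the same length. It lay in 16 of 20 windows of the cholesterol branch (80%) and in 3 of 8 of the fatty acid branch (37.5%). TCACNCCA, a form of the sterol regulatory element, lay in 3 windows (10.7%, against 3.67% of all), those of Hmgcs1, Msmo1 and Srebf2. The E-box CACGTG, which MYC and MXD proteins bind with MAX, lay in 4 windows (14.3%, against 6.02% of all), those of Dhcr7, Hsd17b7, Insig1 and Sc5d. Printed here are 3 cholesterol genes that rose in resting Mycl KO cells of set 2, and, from the fatty acid branch, Fasn and Elovl6, which had the largest differences of that branch after 5 h and 18 h of poly IC. Capitals mark TCACNCCA and CCAAT, the CCAAT shown as ATTGG where it is on the opposite strand. In Fasn, CCAAT on both strands overlaps in one run of capitals. The windows are chr13:119690101-119690350 on the plus strand for Hmgcs1, chr8:64733579-64733828 on the minus strand for Msmo1, chrX:72918271-72918520 on the plus strand for Nsdhl, chr11:120824548-120824797 on the minus strand for Fasn and chr3:129532136-129532385 on the plus strand for Elovl6.
Hmgcs1: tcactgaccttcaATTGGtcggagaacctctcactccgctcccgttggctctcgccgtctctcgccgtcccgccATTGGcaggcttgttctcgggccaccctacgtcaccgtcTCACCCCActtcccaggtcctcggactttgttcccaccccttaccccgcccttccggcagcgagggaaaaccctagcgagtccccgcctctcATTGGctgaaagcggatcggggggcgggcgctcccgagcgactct
Msmo1: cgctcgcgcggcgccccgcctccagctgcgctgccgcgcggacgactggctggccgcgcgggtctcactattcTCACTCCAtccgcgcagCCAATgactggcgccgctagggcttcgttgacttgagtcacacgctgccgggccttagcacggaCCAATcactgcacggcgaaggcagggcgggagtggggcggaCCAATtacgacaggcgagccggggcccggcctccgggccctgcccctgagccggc
Nsdhl: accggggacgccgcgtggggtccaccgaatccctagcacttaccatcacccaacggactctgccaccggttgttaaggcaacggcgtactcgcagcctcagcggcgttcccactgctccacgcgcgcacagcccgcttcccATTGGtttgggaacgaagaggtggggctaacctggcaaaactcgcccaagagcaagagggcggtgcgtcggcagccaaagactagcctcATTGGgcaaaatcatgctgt
Fasn: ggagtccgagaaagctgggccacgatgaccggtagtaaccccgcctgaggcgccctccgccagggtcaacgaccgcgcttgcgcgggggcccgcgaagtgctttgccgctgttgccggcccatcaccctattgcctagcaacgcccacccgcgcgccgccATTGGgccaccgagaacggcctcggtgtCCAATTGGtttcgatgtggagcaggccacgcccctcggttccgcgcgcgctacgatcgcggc
Elovl6: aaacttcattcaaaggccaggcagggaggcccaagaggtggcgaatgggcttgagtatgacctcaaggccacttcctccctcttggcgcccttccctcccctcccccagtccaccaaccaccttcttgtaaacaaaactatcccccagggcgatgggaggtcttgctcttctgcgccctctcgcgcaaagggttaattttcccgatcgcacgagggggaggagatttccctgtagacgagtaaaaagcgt
The marked letters are matches in the sequence and were not tested for binding. Elovl6 held none of the 3 motifs in this window, which says nothing of the factors that act on it.

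Most of the measured genes ranked in the upper part of the levels of an array, with Idi1, Lss and Tm7sf2 lower. Ranked among all named genes of an array, the median member of the cholesterol branch stood at the 73.5 percentile in Mycl KO and at 73.6 in heterozygous arrays of set 1, at 71.8 in KO and 67.7 in WT arrays of set 2, at 69.5 in KO and 69.1 in WT arrays of set 3, and at 72.9 in arrays labelled Mxd1 KO and 76.9 in WT arrays of the Mxd1 set. The median fatty acid member stood at 79.3 and 79.8 in KO and heterozygous arrays of set 1, at 78.2 and 78.5 in KO and WT arrays of set 2, at 69.5 and 70.1 in KO and WT arrays of set 3, and at 78.7 and 77.4 in labelled Mxd1 KO and WT arrays. Srebf2, the transcription factor of the cholesterol branch, held a percentile between 92.5 and 96.8 in all 8 groups. Idi1, the isopentenyl diphosphate isomerase, lay lowest of its branch in both resting sets and stayed below the filter in set 2, where it was not tested. Its 2 transcript clusters differed in sign in sets 1 and 2. Elovl6, which lengthens palmitate, stood at the 33.6 percentile in KO and 36.9 in WT arrays of set 3, beside 72.7 and 69.8 in KO and WT arrays of set 2. Since the sets were normalized apart, these positions are set side by side without a test.

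**Figure D1:**
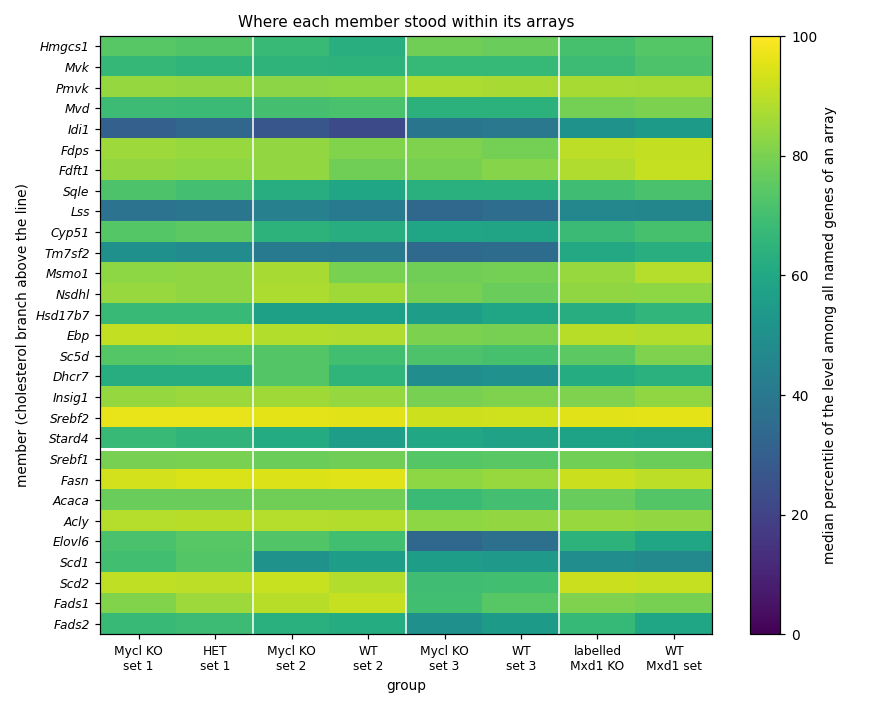
Median percentile of each measured gene (rows) among the 19938 named genes of an array, in each of the 8 groups (columns), from dark at 0 to bright at 100. Elovl6 is at 33.6 in KO and 36.9 in WT arrays of set 3 and brighter elsewhere, and Srebf2 is bright in every group.

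In resting cells of set 2, the cholesterol branch lay higher in Mycl KO than in WT cells, in a comparison where limma called 861 of 14012 genes (6.14%). Hmgcs1, Fdft1, Msmo1, Nsdhl and Dhcr7, 5 enzymes spread along the pathway from its start to its last step, rose by 0.29 to 0.57 on the log2 scale, or 1.22- to 1.48-fold. These are 5 of 19 cholesterol genes tested, where 3.78% of all genes rose, and 0 of the 19 fell. The branch median was 0.16, against 0.01 over all genes, with 16 of 19 members above 0. In the fatty acid branch 1 of 9 genes fell, Scd1, where 2.36% of all genes fell, and 0 rose, with a branch median of 0.04. With all 8 groups in 1 fit, Msmo1, Nsdhl and Dhcr7 kept the call.

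Hmgcs1, the synthase that makes HMG-CoA ahead of mevalonate, had log2 levels of 6.58, 7.17, 6.85, 7.07 and 6.86 in the KO arrays, against 6.59, 6.43, 6.49, 6.29 and 6.81 in the WT arrays. Array 1 was the low one among the KO arrays and array 5 the high one among the WT arrays, and the ranges overlapped. The difference of 0.39 ± 0.11 had an adjusted p of 0.0459, and the call was lost in 8 of the 10 fits that each left out 1 array, with adjusted p up to 0.106. It held without KO array 1 (0.0139) or WT array 5 (0.0175).

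Fdft1, squalene synthase, which commits the pathway to sterols, had levels of 7.90, 8.23, 8.06, 7.97 and 8.23 in KO arrays, against 7.67, 7.79, 7.39, 7.56 and 7.87 in WT arrays. Every KO array lay above every WT array. The rise was 0.42 ± 0.09 (adjusted p = 0.0154), and a second transcript cluster, a further group of probes for the same gene, differed by 0.40.

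Msmo1, the methyl oxidase that acts on the C4 methyl groups after lanosterol, had levels of 8.08, 8.50, 8.59, 8.41 and 8.43 in KO arrays, against 7.75, 7.74, 7.63, 7.85 and 8.21 in WT arrays. KO array 1 lay below WT array 5, and the other 4 KO arrays lay above all WT arrays. The rise of 0.57 ± 0.11 (adjusted p = 0.00717) was the largest of the branch. Nsdhl, the decarboxylating dehydrogenase that follows Msmo1 in the same demethylation, had levels of 8.46, 8.50, 8.67, 8.48 and 8.61 in KO arrays, against 8.27, 8.29, 8.23, 8.19 and 8.30 in WT arrays. There was no overlap, and the rise was 0.29 ± 0.06 (adjusted p = 0.00884).

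Dhcr7, the reductase that turns 7-dehydrocholesterol into cholesterol, had levels of 6.91, 7.18, 7.38, 7.29 and 7.53 in KO arrays, against 6.79, 6.80, 6.69, 6.73 and 6.68 in WT arrays. The WT arrays lay close together, and every KO array was above them. The rise was 0.52 ± 0.09 (adjusted p = 0.00483). KO array 1 was the lowest KO array for all 5 genes that rose. Without it, 10 genes of both branches were called in place of 6, the further ones being Cyp51, Stard4, Elovl6 and Fads1. The number of all genes called also moved, from 861 with every array to between 408 and 1012 with 1 left out.

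Other cholesterol genes differed less. Stard4, which carries cholesterol between membranes, was at 0.29 ± 0.09 (adjusted p = 0.0764), Cyp51, the lanosterol demethylase, at 0.28 ± 0.10 (0.132), Sc5d, a desaturase of the last steps, at 0.26 ± 0.09 (0.105) and Srebf2 at 0.20 ± 0.07 (0.124). With Lss, the synthase that closes the lanosterol ring (0.13 ± 0.06), and the 5 called genes, 10 of 19 had an unadjusted p under 0.05 in the upward direction and 0 in the downward one, where 12.7% and 8.56% of all genes did. The 3 enzymes after HMG-CoA reduction showed little difference, with the mevalonate kinase Mvk at 0.05 ± 0.06, the phosphomevalonate kinase Pmvk at -0.05 ± 0.05, though lower in every KO array than in any WT array, and the decarboxylase Mvd at -0.02 ± 0.07. The remaining enzymes, Fdps, Sqle, Tm7sf2, Hsd17b7 and Ebp, ran between -0.09 and 0.16, and the SREBP retention factor Insig1 was at 0.12 ± 0.08. Of the 28 genes of both branches, 4 lay higher and 3 lower in every KO array than in any WT array, where 3.74% and 3% of all genes did.

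**Figure D2:**
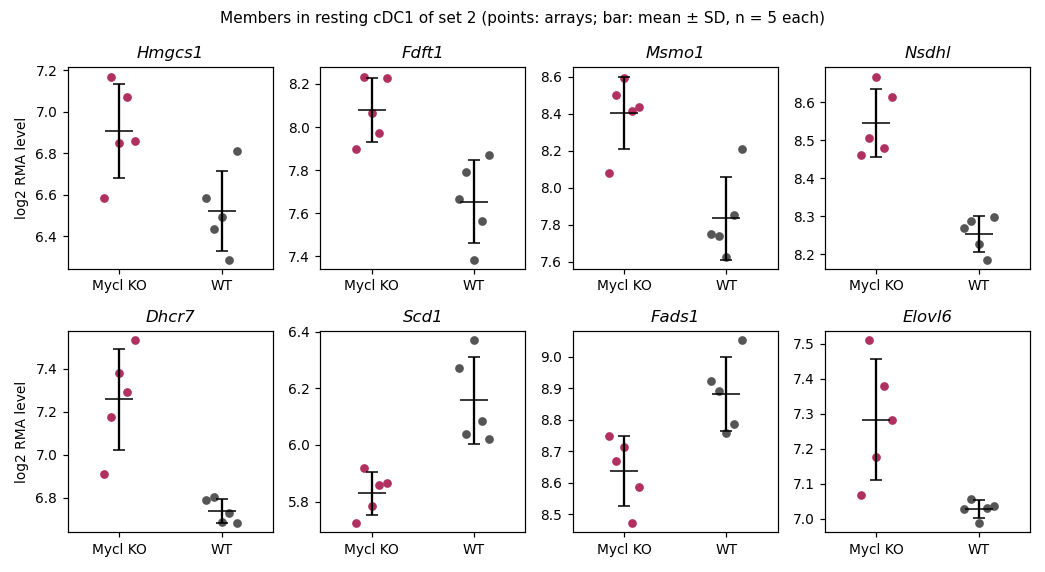
Log2 level of 8 genes in resting cDC1 of set 2, with 1 point per array, Mycl KO left and WT right, and bars for the mean ± SD (n = 5 each). Fdft1, Nsdhl, Dhcr7 and Elovl6 are higher in every KO array than in any WT array, Scd1 and Fads1 are lower in every KO array, and Hmgcs1 and Msmo1 overlap. The vertical axes differ and do not start at 0.

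The fatty acid desaturases and the elongase lay on both sides of 0 in set 2. Scd1, the stearoyl-CoA desaturase, had levels of 5.72, 5.92, 5.78, 5.86 and 5.87 in KO arrays, against 6.27, 6.04, 6.37, 6.09 and 6.02 in WT arrays. All KO arrays lay below all WT arrays. The fall was -0.33 ± 0.07 (adjusted p = 0.0174), and without WT array 1 its adjusted p was 0.0521.

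Fads1, the delta-5 desaturase of polyunsaturated fatty acids, had levels of 8.75, 8.67, 8.71, 8.47 and 8.59 in KO arrays, against 8.92, 8.89, 8.76, 8.79 and 9.05 in WT arrays. The ranges nearly touched without overlapping, and the difference of -0.25 ± 0.07 missed the threshold (adjusted p = 0.0504). Elovl6 had levels of 7.07, 7.51, 7.18, 7.38 and 7.28 in KO arrays, against 7.03, 7.06, 6.99, 7.03 and 7.04 in WT arrays, again without overlap. Its difference of 0.26 ± 0.07 missed the threshold by as little (adjusted p = 0.0512). Elovl6 passed with the filter at the 50th percentile (adjusted p = 0.0412), with quantile normalization (0.0437) and with arrays weighted by their quality (0.0172). Fads1 passed in the same fits (0.04, 0.036 and 0.016). With all 8 groups in 1 fit neither gene passed. Scd2, the other stearoyl-CoA desaturase of these cells, was at 0.35 ± 0.18 (0.269) and Fads2, the delta-6 desaturase, at 0.29 ± 0.11 (0.134). Fasn, fatty acid synthase, Acaca, the acetyl-CoA carboxylase, Acly, which makes cytosolic acetyl-CoA from citrate, and Srebf1 lay between -0.06 and 0.05.

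Other gene groups differed beside these in set 2. Myc rose by 1.18 ± 0.11 (adjusted p = 7.85e-05), with levels of 8.44 to 8.91 in KO arrays against 7.10 to 7.70 in WT arrays. Of 9 interferon genes tested 4 rose and 0 fell, where 3.78% and 2.36% of all genes did, and the mean over the 11 measured was 6.80 to 7.12 in KO against 6.69 to 6.90 in WT arrays. Of 9 cell cycle genes 0 passed limma's test, 7 lay above 0, and their mean was 8.09 to 8.56 in KO against 8.17 to 8.41 in WT arrays. At an unadjusted p under 0.05, 3 of the 9 were higher and 0 lower, where 12.7% and 8.56% of all genes were. The 3 natural killer cell markers, of which 1 passed the filter on all arrays of this set, averaged 4.56 to 4.87 in KO against 4.25 to 4.52 in WT arrays. The part of any of these in the differences of the sterol genes was not tested.

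In set 1, where the controls were heterozygous, the cholesterol branch lay near 0 and the fatty acid branch lay lower in Mycl KO cells. Limma called 3 of 14023 genes (0.0214%) and 0 of the 29 members. At an unadjusted p under 0.05, 4 of 9 fatty acid genes were lower and 0 higher, where 8.45% and 5.75% of all genes were, and 0 of 20 cholesterol genes were either. All 9 fatty acid genes lay below 0, with a median of -0.17, and the cholesterol branch had a median of -0.05 with 13 of 20 below 0, against a median of 0.003 over all genes.

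Elovl6 had levels of 7.93, 8.05, 8.11 and 8.04 in KO arrays, against 8.23, 8.32, 8.24, 8.26 and 8.39 in heterozygous arrays. Every KO array lay below every heterozygous array, and the difference was -0.25 ± 0.05 (unadjusted p = 0.000413, adjusted p = 0.114 in limma). Fads1 had levels of 8.78, 9.08, 8.73 and 8.75 in KO arrays, against 9.14, 9.21, 9.09, 9.34 and 9.44 in heterozygous arrays. KO array 2 came close to the lowest heterozygous array without crossing it, and the difference was -0.41 ± 0.09 (adjusted p = 0.146). These were the 2 fatty acid genes whose lower KO range did not overlap, where 2.72% of all genes had that.

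Fasn differed by -0.24 ± 0.07 (adjusted p = 0.185), with ranges that overlapped. Scd1 differed by -0.29 ± 0.12 (0.329), Fads2 by -0.17 ± 0.12 (0.530; -0.07 without KO array 4 and -0.27 without KO array 2) and Scd2 by -0.13 ± 0.10 (0.551). Acaca, Acly and Srebf1 differed by less, between -0.09 and -0.02. With arrays weighted by their quality, Elovl6, Fads1 and Fasn passed the threshold (adjusted p = 0.0473, 0.0282 and 0.0361). That fit called 141 of 14023 genes, in place of 3. The median of the fatty acid branch was -0.26 without KO array 2, -0.08 without KO array 4 and -0.12 without heterozygous array 5.

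Among the cholesterol genes of set 1, Tm7sf2, a sterol C14 reductase, had the smallest p, with levels of 6.68, 6.82, 6.74 and 6.68 in KO arrays, against 6.62, 6.53, 6.68, 6.68 and 6.62 in heterozygous arrays (0.10 ± 0.05, adjusted p = 0.363). Cyp51 had 8.10, 8.30, 8.24 and 7.82 in KO arrays, against 8.24, 8.40, 7.97, 8.43 and 8.51 in heterozygous arrays (-0.20 ± 0.12, adjusted p = 0.476, and -0.10 without KO array 4). Both overlapped. KO array 4 had the lowest mean of the branch, 8.08, against 8.20 to 8.33 in the other KO arrays and 8.17 to 8.34 in heterozygous arrays, and without it the branch median was 0.009. Msmo1 and Dhcr7, which rose in set 2, were at -0.19 ± 0.18 and -0.04 ± 0.12 here, and heterozygous array 5 held the highest level of both, 9.71 and 7.93. Of 9 cell cycle genes 8 lay below 0 in set 1, with a mean of 9.02 to 9.31 in KO against 9.19 to 9.51 in heterozygous arrays. At an unadjusted p under 0.05 in limma, 4 of the 9 were lower and 0 higher, where 8.45% and 5.75% of all genes were. The 8 cDC1 markers averaged 11.27 to 11.47 in KO against 11.04 to 11.26 in heterozygous arrays. The part of either in the fatty acid result was not tested.

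A joint fit of the resting sets, blocked by set, called 649 of 14639 genes (4.43%), of which the falling ones were 2.43% and the rising ones 2.01% of all genes. Fads1 fell by 0.32 ± 0.06 (adjusted p = 0.00274) and Scd1 by 0.31 ± 0.07 (adjusted p = 0.0127), and both lost the call with all 8 groups in 1 fit (adjusted p = 0.363 and 0.353). Both calls held with any 1 array left out. Beside the levels given above, Scd1 had 8.01, 8.29, 7.77 and 7.88 in KO arrays of set 1, against 8.02, 8.50, 8.23, 8.14 and 8.49 in heterozygous arrays, which overlapped. These were 2 of 29 members, and 0 members rose.

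Nsdhl, the cholesterol gene with the smallest p in the joint fit, was at 0.19 ± 0.06 (adjusted p = 0.0759), with levels of 8.83, 9.28, 9.08 and 9.06 in KO and 9.01, 8.90, 9.0, 8.85 and 9.25 in heterozygous arrays of set 1. These overlapped, unlike those of set 2. Stard4, whose levels were 7.72, 7.66, 7.84 and 7.80 in KO and 7.87, 7.69, 7.64, 7.73 and 7.66 in heterozygous arrays of set 1, and 6.09, 6.60, 6.48, 6.51 and 6.48 in KO and 6.01, 6.05, 6.09, 6.17 and 6.38 in WT arrays of set 2, was at 0.17 ± 0.06 (adjusted p = 0.138). Its ranges overlapped in both sets. The cholesterol branch had 17 of 20 members above 0, with a median of 0.06. Without heterozygous array 5, 4 members were called, Dhcr7 (0.32, adjusted p = 0.0203) and Nsdhl (0.22, adjusted p = 0.0153) in addition. That fit called 854 genes in all, in place of 649.

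Whether Mycl loss acted alike in the resting sets was tested as the effect in set 2 minus that in set 1. Elovl6 differed by 0.51 ± 0.09 (adjusted p = 0.0169), from effects of 0.26 in set 2 and -0.25 in set 1 that each missed the threshold. It was the 1 member of 29 called, where limma called 148 of 14639 genes (1.01%) and 0.758% in that direction. Dhcr7 (0.56 ± 0.16) and Msmo1 (0.76 ± 0.21) had adjusted p of 0.0826 and 0.0837 and passed without KO array 1 of set 2 (0.0264 and 0.0437). Leaving out that array gave 317 genes called in place of 148. With all 8 groups in 1 fit the adjusted p of Elovl6 was 0.524.

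Cyp51, Sc5d, Fdft1 and Hmgcs1 followed, at 0.47 ± 0.17, 0.41 ± 0.15, 0.49 ± 0.19 and 0.40 ± 0.15, with adjusted p of 0.159 to 0.189. In all, 10 of 20 cholesterol and 3 of 9 fatty acid genes had an unadjusted p under 0.05 in the upward direction, where 10.6% of all genes did. Fads2, the fatty acid gene with the smallest p after Elovl6, had levels of 7.87, 8.06, 7.64 and 7.46 in KO and 7.74, 7.87, 7.87, 7.96 and 8.21 in heterozygous arrays of set 1, and of 6.38, 6.98, 6.65, 6.49 and 6.62 in KO and 6.10, 6.46, 6.45, 6.16 and 6.52 in WT arrays of set 2. It overlapped in both sets, and its effects differed by 0.46 ± 0.17 (adjusted p = 0.182). The medians of these differences were 0.21 in the cholesterol branch, with 16 of 20 above 0, and 0.17 in the fatty acid branch, with 8 of 9 above 0, against 0.01 over all genes. The sets differ in the control genotype as well as in their normalization, and these cannot be told apart.

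**Figure D3:**
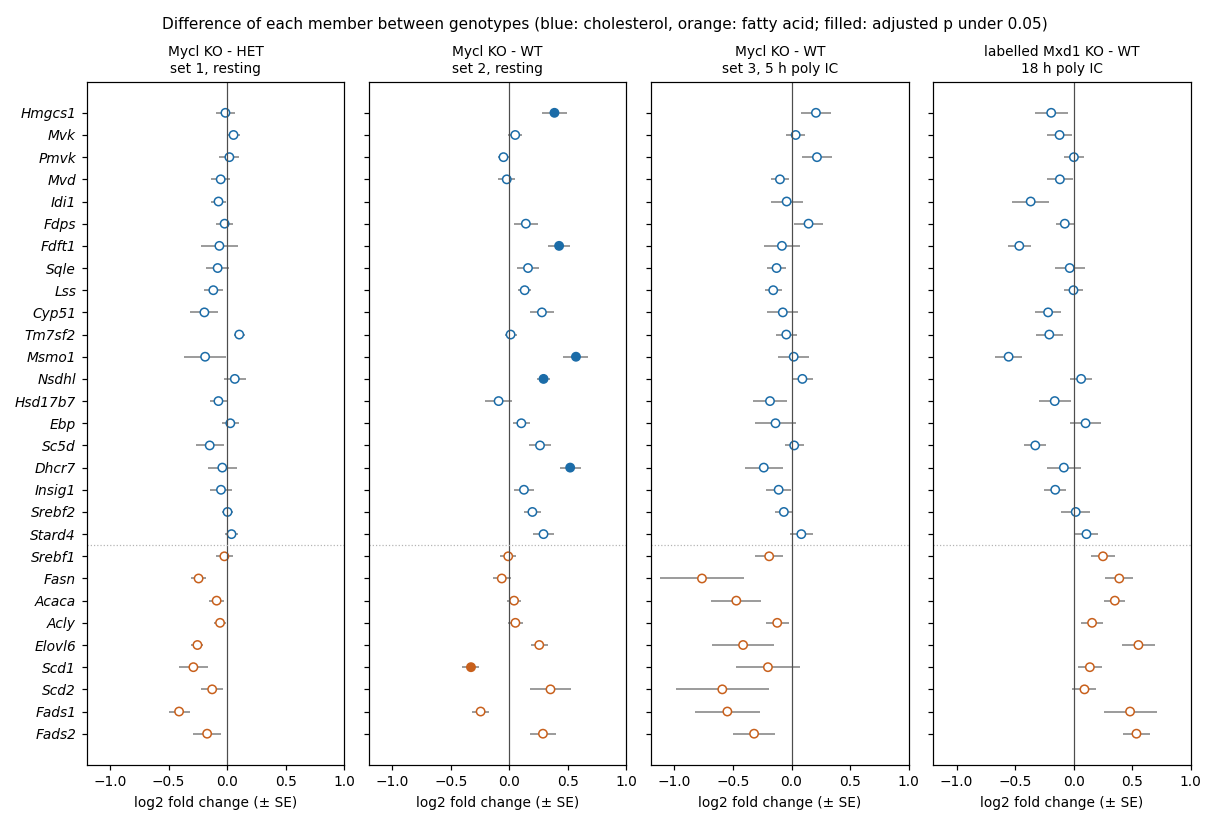
Log2 fold change ± SE of each measured gene in the 4 comparisons of genotypes, KO minus control, with the cholesterol branch above the dotted line in blue and the fatty acid branch below it in orange. Filled points have an adjusted p under 0.05 and occur in set 2 only; Idi1 was not tested in set 2. The fatty acid points lie left of 0 in sets 1 and 3 and right of 0 in the Mxd1 set.

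In set 3, 5 h after poly IC, the fatty acid branch lay lower in Mycl KO than in WT cells, and this rested on 2 WT arrays. Limma called 0 of 14033 genes, with 928 higher and 1064 lower at an unadjusted p under 0.05 (6.61% and 7.58%), and 0 of the 29 members passed either threshold. All 9 fatty acid genes lay below 0, with a median of -0.41, while the cholesterol branch had a median of -0.06 with 12 of 20 below 0 and all genes a median of -0.001. Without WT arrays 1 and 4, whose interferon genes were low, the fatty acid median was -0.02, with 5 members below 0 and 4 above, and the cholesterol median was 0.02. That fit called 11 genes (0.0784%) and 0 members. Without WT array 1 alone the fatty acid median was -0.13.

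Fasn had levels of 7.51, 7.61, 7.98, 7.99 and 7.99 in KO arrays, against 9.79, 7.99, 8.03, 9.27 and 7.82 in WT arrays. WT arrays 1 and 4 stood more than 1 log2 unit above the rest, and the other 3 WT arrays overlapped with the KO arrays. The difference was -0.76 ± 0.36 (unadjusted p = 0.0547, adjusted p = 0.360), and without those arrays it was -0.13 ± 0.12.

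Acaca had levels of 6.63, 6.69, 6.87, 6.64 and 6.86 in KO arrays, against 7.89, 6.83, 6.82, 7.69 and 6.81 in WT arrays. The same 2 WT arrays were high, and the difference of -0.47 ± 0.21 (adjusted p = 0.353) was -0.08 ± 0.08 without them. With all 8 groups in 1 fit, which pools the spread over the sets, Acaca and Fasn passed the threshold (adjusted p = 0.0213 and 0.0218). That fit called 1910 of 14033 genes, and these were its 2 calls among the 29 members. Elovl6 differed by -0.41 ± 0.27 (adjusted p = 0.449), and by -0.02 ± 0.09 without those arrays.

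Scd2 (-0.59 ± 0.40), Fads1 (-0.55 ± 0.28), Fads2 (-0.32 ± 0.18), Scd1 (-0.20 ± 0.27), Srebf1 (-0.19 ± 0.12) and Acly (-0.12 ± 0.10) had adjusted p of 0.379 to 0.730. WT array 1 held the highest of the 10 levels in 9 of 9 fatty acid genes, where it did so in 25.2% of all genes, and in 7 of 20 cholesterol genes. WT array 4 held the next highest level in 7 of 9 fatty acid genes, against 22.1% of all genes, and in 8 of 20 cholesterol genes. The mean of the fatty acid branch was 6.60, 6.49, 6.75, 6.68 and 6.64 in KO arrays, against 7.93, 6.74, 6.61, 7.28 and 6.63 in WT arrays, and that of the 11 interferon genes 11.31, 11.16, 10.90, 10.90 and 10.90 in KO arrays, against 7.62, 10.82, 10.82, 8.73 and 11.08 in WT arrays. The 2 WT arrays lowest in interferon genes were the 2 highest in fatty acid genes. Cell cycle genes averaged 8.29 to 8.77 in KO arrays, against 8.95 and 8.81 in WT arrays 1 and 4 and 8.38 to 8.48 in the other WT arrays. The 8 cDC1 markers averaged 9.68 to 9.91 in KO arrays, against 10.39 and 10.62 in WT arrays 1 and 4 and 9.79 to 9.95 in the other WT arrays. The 7 macrophage and monocyte markers averaged 5.56 to 5.79 in KO arrays, against 5.96 and 5.84 in those WT arrays and 5.72 to 5.79 in the others. The part of any of these in the fatty acid result was not tested.

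**Figure D4:**
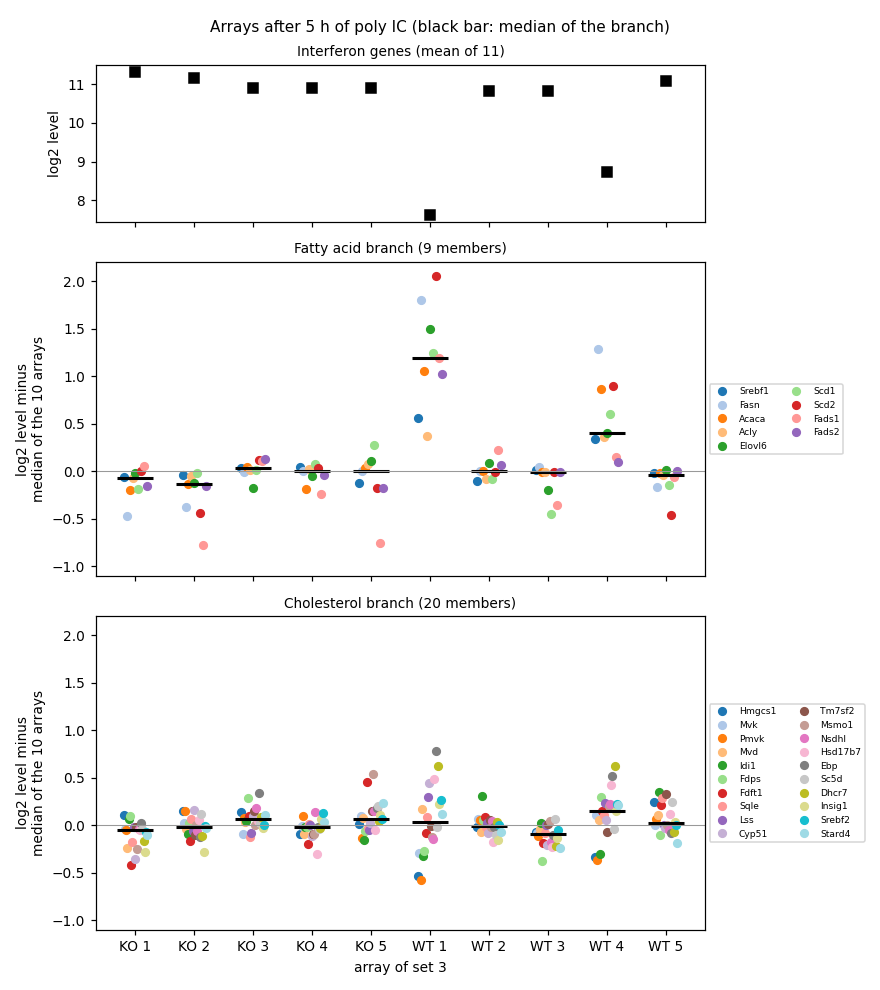
Arrays of set 3, 5 h after poly IC, with Mycl KO left and WT right. The top panel gives the mean log2 level of 11 interferon genes, and the lower panels the log2 level of each fatty acid and cholesterol gene minus its median over the 10 arrays, with a black bar at the branch median. WT arrays 1 and 4 are low in the top panel and high in the fatty acid panel, and the cholesterol bars stay near 0.

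In the cholesterol branch of set 3, Lss had levels of 4.92, 4.88, 4.86, 4.94 and 4.89 in KO arrays, against 5.24, 4.96, 4.94, 5.18 and 4.94 in WT arrays (-0.16 ± 0.07, adjusted p = 0.361). WT arrays 1 and 4 were highest, and the difference was -0.05 ± 0.07 without them. Pmvk had levels of 8.36, 8.56, 8.49, 8.51 and 8.28 in KO arrays, against 7.84, 8.46, 8.30, 8.04 and 8.48 in WT arrays (0.22 ± 0.12, adjusted p = 0.408). Here WT arrays 1 and 4 were lowest, and the difference was 0.03 ± 0.08 without them. The other 18 cholesterol genes ran between -0.24 (Dhcr7) and 0.21 (Hmgcs1). Without KO array 3, whose Mycl level was high, the medians were -0.07 in the cholesterol and -0.38 in the fatty acid branch, and 0 members were among the 2 genes called (0.0143%). Without all 3 of these arrays 63 genes were called (0.449%), again with 0 members.

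The Mycl KO effect after poly IC minus that at rest, set 3 minus set 2, was called for 3 of 14665 genes (0.0205%) and 0 members. Every array of set 3 had poly IC and no array of set 2 did. Poly IC therefore cannot be told apart from the set and its normalization in this difference. Dhcr7 came nearest among the cholesterol genes, with levels of 5.48, 5.53, 5.73, 5.62 and 5.69 in KO and 6.27, 5.68, 5.44, 6.28 and 5.58 in WT arrays of set 3, beside the levels given for set 2. Its difference was -0.76 ± 0.20 (adjusted p = 0.157), and -0.47 ± 0.13 (adjusted p = 0.150) without WT arrays 1 and 4 of set 3. Lss, whose levels in set 2 were 5.35, 5.50, 5.40, 5.61 and 5.44 in KO and 5.36, 5.36, 5.26, 5.33 and 5.35 in WT arrays, was at -0.29 ± 0.09 (adjusted p = 0.223) and Msmo1 at -0.55 ± 0.18 (0.248).

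In all, 6 of 20 cholesterol and 3 of 9 fatty acid genes had an unadjusted p under 0.05, each lower, where 7.84% of all genes were lower and 5.13% higher. The cholesterol median was -0.22, with 18 of 20 below 0, and -0.16 without those WT arrays. The fatty acid median was -0.51, with 8 of 9 below 0, and -0.07 without them. Fads2, with levels of 5.65, 5.65, 5.93, 5.77 and 5.63 in KO and 6.84, 5.88, 5.80, 5.90 and 5.82 in WT arrays of set 3, was at -0.61 ± 0.23 (adjusted p = 0.282), and at -0.39 ± 0.15 without WT arrays 1 and 4. Elovl6 had levels of 4.92, 4.82, 4.76, 4.90 and 5.05 in KO arrays of set 3, against 6.45, 5.03, 4.74, 5.35 and 4.96 in WT arrays, where arrays 1 and 4 were highest. Its difference was -0.67 ± 0.29 (adjusted p = 0.337), and -0.27 ± 0.12 without those arrays. Scd1, at 0.13 ± 0.29 in all arrays, was at 0.59 ± 0.13 without them, the nearest to the threshold of all members in that fit (adjusted p = 0.0577). Set 2 serves this difference and the one between the resting sets, so the 2 are not independent.

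In the Mxd1 set, 18 h after poly IC, the branches lay in opposite directions, with fatty acid genes higher and cholesterol genes mostly lower in the arrays labelled Mxd1 KO. Limma called 10 of 14080 genes (0.071%) and 0 of the 29 members. At an unadjusted p under 0.05, 5 of 9 fatty acid genes were higher, where 9.51% of all genes were, and 4 of 20 cholesterol genes were lower, where 6.37% were. All 9 fatty acid genes lay above 0, with a median of 0.35, and 15 of 20 cholesterol genes below 0, with a median of -0.12, against -0.002 over all genes.

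Fads2 had levels of 7.20, 7.00 and 7.33 in arrays labelled Mxd1 KO, against 6.77, 6.67 and 6.48 in WT arrays. The ranges did not overlap, and the difference was 0.54 ± 0.11 (adjusted p = 0.146). Elovl6 had levels of 7.02, 7.30 and 7.03 in labelled KO arrays, against 6.27, 6.65 and 6.77 in WT arrays, again apart (0.55 ± 0.14, adjusted p = 0.183). Fads1 (0.48 ± 0.23), Fasn (0.39 ± 0.12), Acaca (0.35 ± 0.09) and Srebf1 (0.25 ± 0.11) were also apart, with adjusted p of 0.190 to 0.338. Without WT array 1 Fads1 was at 0.19 and Fasn at 0.25, and without WT array 3 Srebf1 was at 0.14.

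In total 6 of 9 fatty acid genes lay higher in every labelled KO array than in any WT array, where 11.8% of all genes did. Acly, Scd1 and Scd2 overlapped, at 0.16 ± 0.10, 0.14 ± 0.10 and 0.09 ± 0.10. WT array 1 was the lowest array of the branch, with a branch mean of 7.53 against 7.77 and 7.67 in the other WT arrays and 7.94, 7.96 and 8.06 in labelled KO arrays. Without it the branch median was 0.26.

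**Figure D5:**
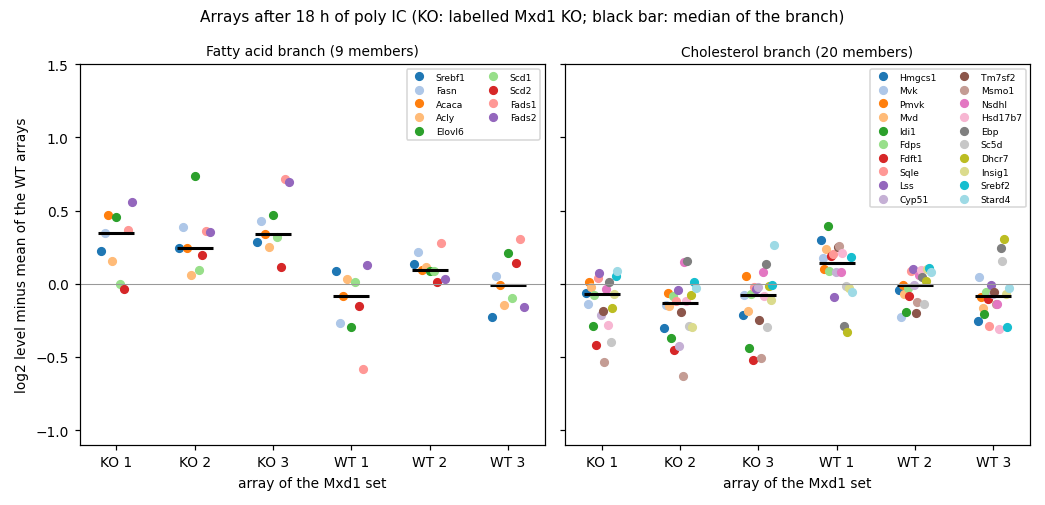
Arrays of the Mxd1 set, 18 h after poly IC, with the arrays labelled Mxd1 KO left and WT right. Each point is the log2 level of a gene minus its mean over the 3 WT arrays, with a black bar at the branch median. Fatty acid points of the labelled KO arrays lie mostly above 0, and the bars of the cholesterol branch are below 0 in labelled KO arrays and highest in WT array 1.

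Msmo1 had levels of 8.49, 8.40 and 8.53 in arrays labelled Mxd1 KO, against 9.29, 8.91 and 8.89 in WT arrays. The groups did not overlap, and the difference was -0.56 ± 0.12 (adjusted p = 0.146). Fdft1 had levels of 8.90, 8.86 and 8.80 in labelled KO arrays, against 9.51, 9.23 and 9.22 in WT arrays, also apart (-0.46 ± 0.10, adjusted p = 0.146), and its second cluster differed by -0.44. WT array 1 was the high one for both genes. Without WT array 2, limma called 568 genes, and Msmo1 passed (-0.62, adjusted p = 0.0484).

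Sc5d (-0.33 ± 0.09, adjusted p = 0.206), Idi1 (-0.37 ± 0.16, 0.301) and Fdps, the farnesyl diphosphate synthase (-0.08 ± 0.08, 0.657), were the other 3 of 5 cholesterol genes that lay lower in every labelled KO array, where 10.8% of all genes did. Without WT array 1 Idi1 was at -0.17 and Fdps at -0.03. Srebf2 (0.02 ± 0.12), Pmvk (0.002 ± 0.08) and Lss (-0.002 ± 0.08) were near 0, and the rest ran between -0.22 (Cyp51) and 0.11 (Stard4). Without WT array 1 the branch median was -0.05, and without WT array 3 it was -0.19. Cell cycle genes also lay higher, 9 of 9 above 0 with means of 8.57, 8.69 and 8.83 in labelled KO arrays, against 7.96, 8.33 and 8.42 in WT arrays. In limma 9 of 9 had an unadjusted p under 0.05, where 9.51% of all genes were higher. For 8 of 9 the ranges did not overlap, where 11.8% of all genes lay higher. Their median was 0.43, beside 0.35 in the fatty acid branch. Interferon genes averaged 9.61, 9.53 and 9.28 in labelled KO arrays, against 9.81, 9.65 and 9.47 in WT arrays. Marker means lay lower in every labelled KO array than in any WT array for natural killer cells (4.16 to 4.27 against 4.45 to 4.56) and T cells (5.15 to 5.21 against 5.27 to 5.43). The filter level was 5.17 to 5.25 here. On all labelled KO arrays, 0 of 3 natural killer and 1 of 3 T cell markers passed it. Means were also lower for macrophages and monocytes (6.33 to 6.35 against 6.38 to 6.50) and cDC2 (5.53 to 5.55 against 5.58 to 5.67). They overlapped for plasmacytoid dendritic cells (6.72 to 6.81 against 6.69 to 6.95), B cells (5.59 to 5.69 against 5.58 to 5.78) and neutrophils (5.22 to 5.66 against 5.11 to 5.49). The 1 erythroid gene overlapped too. The 8 cDC1 markers averaged 10.62, 10.69 and 10.66 in labelled KO arrays, against 10.25, 10.58 and 10.63 in WT arrays. These also overlapped, with WT array 1 lowest. Whether any of these bears on the difference of the branches was not tested.

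Genes around the pathway were followed in 2 further lists. Of 14 measured genes of sterol control and the LXR side, such as SREBP processing, oxysterol signalling and lysosomal release, 13 were tested in set 2, of which 1 rose and 1 fell, where 3.78% and 2.36% of all genes did. Npc1, which exports cholesterol from lysosomes, rose by 0.33 ± 0.08 (adjusted p = 0.0282; levels of 8.06 to 8.37 in KO and 7.72 to 8.09 in WT arrays), and Lipa, the lysosomal acid lipase that frees it from esters, fell by 0.44 ± 0.10 (adjusted p = 0.0172; 9.09 to 9.58 in KO and 9.51 to 9.90 in WT arrays). Both ranges overlapped. Of 20 genes of fatty acid supply, elongation and use, 0 passed limma's test in any comparison, and their medians lay between -0.03 and 0.03. The sterol control list held 0 calls in the other comparisons, with medians of -0.07 to 0.11. At an unadjusted p under 0.05 in set 3, 2 of 14 sterol control genes were higher and 1 lower, and 2 of 20 genes of the other list were higher and 2 lower, where 6.61% and 7.58% of all genes were. In the Mxd1 set 1 of 12 and 4 of 20 were higher and 0 and 1 lower, where 9.51% and 6.37% of all genes were.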

How the data were processed

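The deposited values are log2 expression levels of 35556 transcript clusters on Affymetrix arrays, made by the authors with RMA in Expression Console, per the submitters' processing notes. The sources used here give no version for either. They were used as deposited, within each set. Of the clusters, 21789 were paired with 1 gene symbol, 1621 with several and 12146 were not listed, and the cluster with the highest mean stood for each of the 999 genes with several. Arrays have no read depth, so their number limits the precision.

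Differences were fitted in R 4.3.3 with limma 3.58.1 (lmFit, eBayes) on the arrays of each comparison, with Benjamini-Hochberg adjustment over all genes that passed the 30th percentile of an array on enough arrays to fill the smallest group. The script was checked on simulated data. Members, lists and tests were chosen with earlier results of these data known. Named with full values were the members with an adjusted p under 0.05 and, where a branch had fewer than 2 of these, its 2 members with the smallest p. Genes outside the list were named only as targets of the knockouts, as Myc, or where past the threshold. Alternatives were no filter or the 50th percentile, quantile normalization or subtracted medians, robust eBayes, array weights, all 8 groups in 1 fit, the replicate number as a block and each array left out. The fits without WT arrays 1 and 4 or KO array 3 of set 3 were chosen after seeing the data. Replicate numbers gave correlations of -0.398 to 0.348 between the deviations of same-numbered arrays, over 0.1 in 5 of 17 pairs, so they were not taken to pair arrays.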

Additional observations from a re-analysis of the deposited data

Results flagged for a closer look

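Of 174 sets of values of 1 gene in 1 group of 4 or 5 arrays, 11 held an array far from the others by Dixon's test, which chance alone gives in about 1 of 20. In set 1, heterozygous array 5 was high for Dhcr7 (7.93) and low for Srebf1 (8.37) and Acly (9.40). KO array 4 of that set was low for Sqle (7.73) and Lss (6.02), and KO array 2 was high for Fads1 (9.08). In set 2, KO array 3 was low for Idi1 (4.33), KO array 1 was low for Stard4 (6.09) and WT array 5 was high for Fdps (8.09). In set 3, KO array 4 was low for Hsd17b7 (5.71) and WT array 1 was high for Fads2 (6.84). The effect of Mycl KO on Elovl6 differed between the resting sets by 0.51 in the fit of that difference.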

How the results depend on the processing

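Each refit gave counts of calls and branch medians for a whole comparison. Over all refits, 551 of these values held, meaning counts within 1.5 times or medians moved by less than the SD between control arrays. Another 89 moved further. The sign of a median was not part of this check. Values of single genes kept the call in 179 cases and lost it in 19. No call changed direction in these. With all 8 groups in 1 fit, set 2 gave 358 genes and 3 members, set 3 1910 and 2, the Mxd1 set 235 genes, the joint resting sets 119 and 0 members, set 2 minus set 1 15 and 0, and set 3 minus set 2 181 and 1, Dhcr7. Array weights gave 141 genes and 3 members in set 1, 72 genes in set 3, 18 in the Mxd1 set, 584 and 3 members for set 2 minus set 1, and 74 for set 3 minus set 2. A filter at the 50th percentile gave 5 genes in set 1 and 6 for set 3 minus set 2, where quantile normalization gave 8, subtracted medians 7 and robust eBayes 9. No filter gave 1 gene in set 3. Without WT arrays 1 and 4, set 3 gave 11 genes and set 3 minus set 2 41, with a fatty acid median of -0.0659, and without KO array 3 as well 63 and 54. The replicate block gave 1 gene in set 1, with a fatty acid median of -0.115, 1 in set 3, 16 in the Mxd1 set, and 30 with 0 members for set 2 minus set 1 (Elovl6 0.484, adjusted p = 0.0517). In set 2 this block lost Hmgcs1 (0.0619) and gained Fads2 and Stard4. With 1 array left out, genes called were 1 to 7 in set 1, while set 2 gave 408 (without WT array 1) to 1012, set 3 gave 0 to 2, the Mxd1 set 3 to 568, the joint sets 433 to 854, and they ran from 31 to 317 for set 2 minus set 1 and 1 to 30 for set 3 minus set 2. In set 2 it was also 452 without KO array 5 and 507 without WT array 2. Members called ran from 4 to 10 in set 2, 2 to 4 in the joint sets, 1 to 3 for set 2 minus set 1, 0 to 1 in the Mxd1 set and were 0 elsewhere. Cholesterol medians ran from -0.0754 to 0.0093 in set 1; for set 2 they were 0.12 to 0.23, for set 3 -0.084 to -0.0118, for the Mxd1 set -0.186 to -0.046, 0.045 to 0.0905 in the joint sets, 0.178 to 0.254 for set 2 minus set 1 and -0.282 to -0.188 for set 3 minus set 2. Fatty acid medians ran from -0.26 to -0.0834, 0.00694 to 0.0559, -0.554 to -0.128, 0.255 to 0.397, -0.0393 to -0.000627, 0.117 to 0.234 and -0.612 to -0.342 in the same order. The causes were not tested.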
